A study of Homo sapiens with 15 samples.

Results

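The genes described here form the TGF-beta axis with the secreted protease HTRA1: the ligands TGFB1, TGFB2 and TGFB3, the latency protein LTBP1, the receptors TGFBR1 and TGFBR2, the signal transducer SMAD3, its inhibitor SMAD7, the target gene TGFBI, and HTRA1. They are 10 genes of the 19483 named on the array, and a probe was taken as theirs where the array's own annotation gave it a RefSeq transcript of the gene, which yielded 11 of 42405 non-control probes. The genes were chosen by the group differences in signal on these same arrays, so those differences are given as a description and support nothing.

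TGF-beta ligands are secreted in a latent form held in the extracellular matrix by LTBP proteins, and integrins and proteases release them. The active ligand binds the type II receptor, which recruits and phosphorylates the type I receptor, and this in turn phosphorylates SMAD3, which enters the nucleus with SMAD4 and drives target genes, among them that of its own inhibitor SMAD7. In squamous epithelium the pathway is known for arresting growth in normal cells and for favouring invasion in advanced tumours, and HTRA1 is a secreted serine protease that cleaves matrix proteins and is known to bind and inhibit ligands of this family.

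The study compared PE/CA-PJ41 cells, a human oral squamous cell carcinoma line, that carried an empty pCMV6-Neo vector (NCE, for non-cytoglobin expressing) with PE/CA-PJ41 cells stably transfected with human cytoglobin cDNA in the same vector (CYGB+). The CYGB+ cells on the arrays were 1 stable clone (LST421), taken with cloning rings under G418, so the transgene cannot be told apart from what is particular to that clone, and the study's text elsewhere calls its control the parent line. RNA was extracted on 3 occasions after 24 h in culture and hybridised to Agilent SurePrint G3 Human Gene Expression arrays, with 3 biological replicates a group, each NCE replicate on 3 arrays and each CYGB+ replicate on 2, which makes 9 NCE and 6 CYGB+ arrays. Separate cultures are not described beyond the extraction occasions, so the spread given is that between these RNA extracts, and in bulk RNA fewer cells of a type cannot be told apart from less RNA per cell.

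Several facts of the arrays stand before the results. Slide 1 held 8 NCE arrays, and slide 2 held all 6 CYGB+ arrays and 1 NCE array, that of NCE replicate 1 repeat 3, so slide and group almost coincide. The differences of the tested genes of the axis are therefore also given with slide as a term in the fit and within slide 2. In both settings only that 1 NCE array on slide 2 tells slide from group, so a call kept or lost there rests on it. The fit with slide as a term took the 15 arrays singly, with the biological replicate as a random block, whereas the main fit took replicate means. Its calls therefore differ from the main calls in the unit of the fit as well as in the slide term. The labels give the cyanine 3 (green) dye to every sample, whereas the study's methods give cyanine 5 to the control. The green channel and the labels' groups were used throughout, and every direction below rests on them. CYGB+ replicate 1 repeat 1 deviated most from its group mean, with an SD of 0.61 log2 units over the tested probes, followed by NCE replicate 3 repeat 2 at 0.40, while the other arrays lay between 0.16 and 0.31. The probe for CYGB did not separate the groups: its log2 green signal was 11.86, 12.17 and 11.96 in the NCE replicates and 11.35, 12.39 and 11.97 in the CYGB+ replicates, a difference of -0.10 ± 0.24 (SE, n = 3 a group, limma adjusted p = 0.826), and it was well above background on all 15 arrays. Whether this probe lies within the transfected cDNA was not tested, so it does not check the labels. The study describes the parent line as not expressing cytoglobin, whereas the probe gave signal on every NCE array. The source of that signal was not tested. Of the markers of the line, all 10 squamous epithelial genes were well above background on all 15 arrays, against 2 of 10 fibroblast, 0 of 5 endothelial and 2 of 5 leukocyte genes.

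A probe's level here is the log2 green spot intensity after background correction and quantile normalisation, averaged over array repeats, and levels of different probes are not compared. A probe was tested where it was well above background on every array of at least 1 group, which held for 19604 probes and for 9 of the 10 genes. A probe was called at a limma adjusted p under 0.05. Of the 10 genes, 3 were called, HTRA1 higher and TGFB2 and TGFBR2 lower in CYGB+, beside 12.0% of all tested probes (6.10% higher and 5.93% lower). The biological replicates of the groups did not overlap for 5 of the 9 tested genes (HTRA1, TGFB1, TGFB2, TGFB3 and TGFBR2), beside 34.5% of all tested probes (17.5% higher and 17.0% lower). The median difference over the 9 tested genes was -0.08, and over all tested probes it was 0.005.

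**Figure D1:**
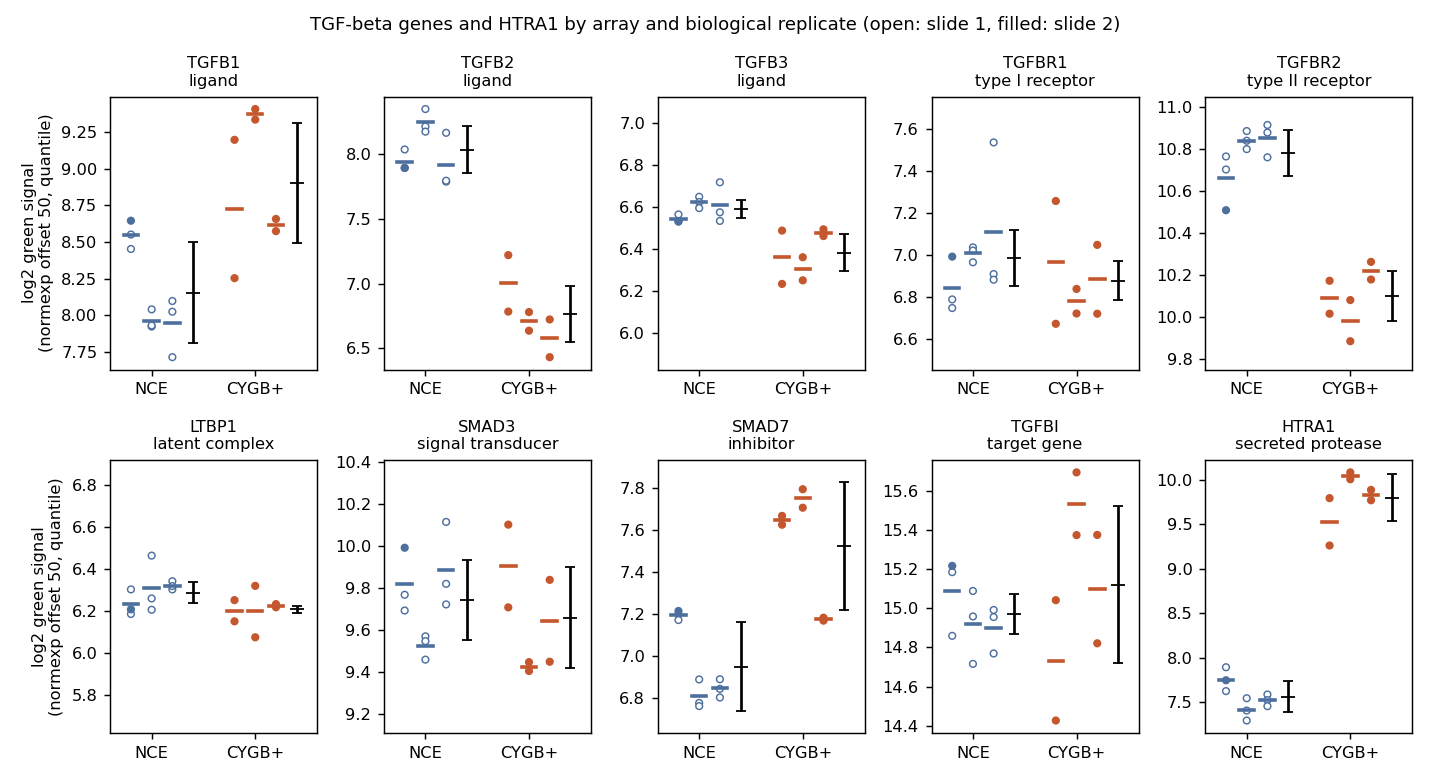
Log2 green signal of the 10 genes (vertical axis, own range in each panel) in NCE (blue) and CYGB+ (orange) cells. Points are arrays, open on slide 1 and filled on slide 2, short bars are biological replicates, and black marks give the group mean ± SD over 3 replicates. HTRA1, TGFB2, TGFBR2 and TGFB3 have no array in common range between the groups, while TGFBR1, SMAD3 and TGFBI overlap.

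The upstream sequences of TGFB2 and HTRA1, which differed in opposite directions, are shown with that of TGFB1, a ligand that did not pass the test. Each is the 250 bases before the RefSeq gene start in GRCh38.p14, 5′ to 3′ on the gene's strand, and capitals mark CAGAC, a box that SMAD proteins are known to bind, searched on both strands. TGFB2 lies at chr1:218345086-218345335 on the plus strand, HTRA1 at chr10:122461303-122461552 on the plus strand and TGFB1 at chr19:41353923-41354172 on the minus strand.
TGFB2: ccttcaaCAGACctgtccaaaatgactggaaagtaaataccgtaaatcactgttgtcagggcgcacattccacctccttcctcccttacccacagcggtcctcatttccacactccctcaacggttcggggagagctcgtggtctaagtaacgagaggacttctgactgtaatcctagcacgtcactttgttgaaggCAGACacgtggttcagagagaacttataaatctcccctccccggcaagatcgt
HTRA1: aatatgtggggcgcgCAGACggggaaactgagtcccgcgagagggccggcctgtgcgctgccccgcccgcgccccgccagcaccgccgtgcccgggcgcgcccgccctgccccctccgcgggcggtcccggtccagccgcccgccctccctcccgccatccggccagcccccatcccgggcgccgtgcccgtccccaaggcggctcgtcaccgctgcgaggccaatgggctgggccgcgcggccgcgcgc
TGFB1: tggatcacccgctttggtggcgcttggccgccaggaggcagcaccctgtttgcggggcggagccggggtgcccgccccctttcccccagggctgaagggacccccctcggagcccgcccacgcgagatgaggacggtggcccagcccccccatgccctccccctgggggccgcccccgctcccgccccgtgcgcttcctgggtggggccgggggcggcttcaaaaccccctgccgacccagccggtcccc
The TGFB2 window held the box 2 times, the HTRA1 window 1 time and the TGFB1 window 0 times, and 38.0% of 35116 RefSeq windows of this length hold it. The longer palindrome GTCTAGAC was in 0 of these 3 windows and in 64 of all windows (0.182%). G and C made up 50.4% of the TGFB2 window, 81.2% of the HTRA1 window and 76.8% of the TGFB1 window. These matches are a description of the letters only.

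Of the ligands, TGFB2 was lower in CYGB+. This isoform, needed for the development of the heart and the eye, had a log2 green signal of 7.94, 8.25 and 7.92 in the NCE replicates and of 7.0, 6.71 and 6.58 in the CYGB+ replicates. All CYGB+ arrays (6.43 to 7.22) lay below all NCE arrays (7.79 to 8.35). The difference was -1.27 ± 0.15 (SE, n = 3 a group), a 2.42-fold lower signal. It was -1.16 with slide as a term, -1.13 within slide 2 and -1.31 without the 2 arrays that stood apart. With the scanner software's processed signal, in which no offset is added, it was -2.23, or 4.71-fold lower.

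TGFB1, the most widely expressed ligand, read 8.55, 7.96 and 7.95 in NCE and 8.72, 9.37 and 8.62 in CYGB+. The CYGB+ replicates lay above the NCE replicates by 0.75 ± 0.24 (SE), although the arrays overlapped (7.71 to 8.64 in NCE and 8.25 to 9.41 in CYGB+), and the gene did not pass the test. It was 0.39 with slide as a term and 0.26 within slide 2, where the single NCE array comes from the NCE replicate with the highest level, and the arrays of that replicate on the 2 slides differed by 0.14. In the authors' value table it was 0.66 on that table's own log scale and passed (limma adjusted p = 0.0409). The repeats of CYGB+ replicate 1 read 8.25 and 9.20, and without the 2 arrays that stood apart the value was 0.87 and passed the test (adjusted p = 0.0252).

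TGFB3, the third isoform, was dim: it was well above background on all 9 NCE arrays and on 4 of 6 CYGB+ arrays. Its replicates read 6.54, 6.62 and 6.61 in NCE and 6.36, 6.30 and 6.48 in CYGB+. The groups did not overlap, and the difference of -0.21 ± 0.10 (SE) did not pass the test. It was -0.17 with slide as a term and -0.15 within slide 2. On the processed signal it was -0.73 and passed (adjusted p = 0.0389).

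LTBP1, which tethers latent TGF-beta to the matrix, was not tested. Its brighter probe was well above background on 3 of 9 NCE and 2 of 6 CYGB+ arrays and its dimmer probe on none of the 15, so the arrays gave no usable level. The brighter probe read 6.23, 6.31 and 6.32 in NCE and 6.20, 6.20 and 6.23 in CYGB+.

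Of the receptors, TGFBR2, the type II receptor that binds ligand first, was lower in CYGB+. It read 10.66, 10.84 and 10.85 in NCE and 10.09, 9.98 and 10.22 in CYGB+, and no CYGB+ array (9.88 to 10.26) reached the lowest NCE array at 10.51. The difference was -0.68 ± 0.11 (SE), or 1.61-fold lower. The NCE array on slide 2 read 10.51 where the other repeats of the same replicate averaged 10.73, a shift of -0.23 toward the CYGB+ values. With slide as a term the difference was -0.44 (adjusted p = 0.105) and within slide 2 it was -0.41, so the call was lost. It was lost as well without NCE replicate 2 (-0.66) and without NCE replicate 3 (-0.65). The same held on the processed signal with 75th percentile scaling (-0.54) and in the authors' value table (-0.42 on that table's own log scale). TGFBR1, the type I receptor whose kinase phosphorylates SMAD proteins, read 6.84, 7.01 and 7.11 in NCE and 6.96, 6.78 and 6.88 in CYGB+. These ranges overlapped, and the difference was -0.11 ± 0.11 (SE), or -0.19 with slide as a term and -0.12 within slide 2.

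SMAD3, the transducer that carries the signal to the nucleus, read 9.82, 9.53 and 9.89 in NCE and 9.91, 9.43 and 9.64 in CYGB+. The groups overlapped over nearly their whole range, with a difference of -0.08 ± 0.16 (SE), and its sign turned under 2 alternatives. It was -0.33 both with slide as a term and within slide 2. SMAD7, the inhibitory SMAD induced by the pathway, read 7.20, 6.81 and 6.85 in NCE and 7.65, 7.75 and 7.18 in CYGB+. CYGB+ replicates 1 and 2 lay above all NCE replicates and CYGB+ replicate 3 lay just below NCE replicate 1. The difference was 0.57 ± 0.18 (SE, 1.49-fold) and did not pass the test (limma adjusted p = 0.0785). It passed with the replicate number as a block (adjusted p = 0.0417) and without CYGB+ replicate 3 (0.75). It also passed without the 2 arrays that stood apart (0.57) and in the authors' value table (0.70 on that table's own log scale). It was 0.40 with slide as a term, 0.31 within slide 2 and 1.01 on the processed signal.

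TGFBI, a matrix protein named for its induction by TGF-beta, was a bright probe at 15.09, 14.92 and 14.90 in NCE and 14.73, 15.53 and 15.10 in CYGB+. CYGB+ replicate 1 lay below every NCE replicate and CYGB+ replicates 2 and 3 lay above them all. The difference of 0.15 ± 0.19 (SE) was smaller than the spread between CYGB+ replicates (SD 0.40), and it was -0.07 with slide as a term and -0.09 within slide 2.

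HTRA1 differed most of the 10 genes. It read 7.76, 7.42 and 7.52 in the NCE replicates and 9.53, 10.04 and 9.83 in the CYGB+ replicates, and the arrays lay from 7.30 to 7.89 in NCE and from 9.26 to 10.08 in CYGB+, with no overlap. The CYGB+ signal was higher by 2.23 ± 0.16 (SE), or 4.70-fold, which placed the probe seventh by size among those tested. The NCE array on slide 2 read 7.75, against 7.76 for the mean of the slide 1 repeats of the same replicate. The difference was 2.12 with slide as a term, 2.05 within slide 2, 2.32 without the 2 arrays that stood apart and 2.69 on the processed signal. It kept its call in each of these settings except within slide 2, where 1 NCE array stands for its group and adjusted p = 0.108.

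**Figure D2:**
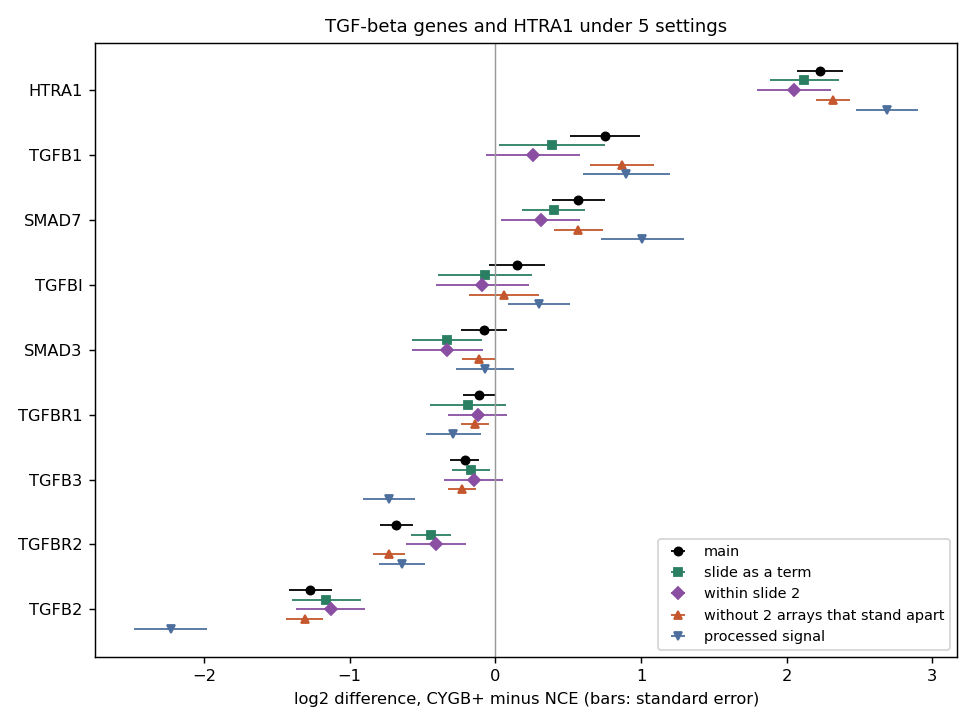
Log2 difference, CYGB+ minus NCE (horizontal axis), of the 9 tested genes under 5 settings, with standard errors as bars. HTRA1 stays between 2.05 and 2.69 and TGFB2 between -2.23 and -1.13, while TGFBR2 moves to -0.44 and TGFB1 to 0.39 once slide is a term.

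The other HTRA proteases were set beside HTRA1. HTRA2, a mitochondrial protease released in apoptosis, read 9.70, 9.84 and 9.80 in NCE and 10.10, 10.47 and 10.38 in CYGB+. It rose by 0.53 ± 0.12 (SE, adjusted p = 0.0335), and this call was lost with slide as a term (0.50, adjusted p = 0.161). HTRA3 and HTRA4 were well above background on at most 1 of 15 arrays and were not tested. Of 12 genes listed as HTRA1 substrates or binding partners and present on the array, 4 were tested. Of these 4, 1 was called, beside 12.0% of all tested probes, and so few genes give no share to compare. It was APP, the amyloid precursor protein, with a difference of -0.58 ± 0.12 (SE, limma adjusted p = 0.0261). This call was also lost with slide as a term (adjusted p = 0.201). The second APP probe read -0.53 and did not pass. Fibronectin (FN1), a matrix substrate of HTRA1, differed by 0.32 and did not pass.

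The 5 genes whose centred profile over the 6 biological replicates lay nearest to that of HTRA1 were found among 11985 candidates by root mean square distance, a measure that the group difference governs because all candidates share these samples. They were GSTM3, a glutathione transferase, at a distance of 0.24 log2 units, IL24, a cytokine, at 0.25, MOXD1, a monooxygenase-like protein, at 0.27, ZNF789, a zinc finger gene, at 0.29, and NPNT, a basement membrane protein, at 0.32. GSTM3 read 6.16, 6.19 and 6.23 in NCE and 8.05, 8.12 and 8.12 in CYGB+. GSTM3 and NPNT were well above background on 1 of 9 NCE arrays and on all 6 CYGB+ arrays, so their NCE level is only a bound, and their differences and distances depend on the background floor and the offset. IL24, MOXD1 and ZNF789 were well above background on all 15 arrays and were higher in CYGB+ by 1.81, 1.79 and 1.90 log2 units, beside 2.23 for HTRA1.

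**Figure D3:**
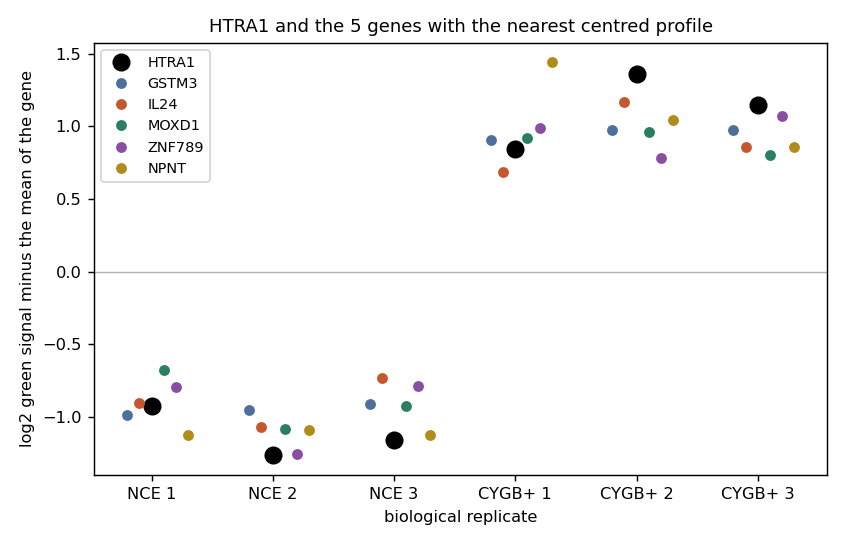
Log2 green signal of HTRA1 (large black points) and of the 5 genes nearest to it, each minus its own mean over the 6 biological replicates (horizontal axis, points shifted sideways for legibility). All 6 genes sit below 0 in the NCE replicates and above 0 in the CYGB+ replicates, which follows from choosing the 5 by nearness to HTRA1 over these replicates.

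Beyond these 10 genes, 102 other genes of the pathway in 6 lists were found on the array and 72 of them were tested, each by its brightest probe. Of these, 7 rose and 8 fell in CYGB+ (20.8%), beside 12.0% of all probes, and their median difference was 0.04, beside 0.005. The lists were chosen with earlier results of these data known, and the shares set genes beside single probes, so they are a description. The same 12.0% stands beside the counts of each list below. All 15 had replicates that did not overlap between the groups, beside 34.5% of all tested probes. Their call on the same values makes this likely, so it adds no support. With slide as a term, in a fit on the 15 single arrays, 8 of the 72 were called, beside 3.73% of all probes. These were 7 of the 15 and SMAD5, which had not passed before (adjusted p = 0.0309 against 0.0506). The array-level fit without slide called 28 of the 72, beside 23.3% of all probes, so the slide term is not the only change from the main fit. Within slide 2 all 15 kept their sign, but the arrays of slide 2 also entered the fit that called these genes, so this is no separate check. Leaving out each replicate in turn, ITGB8, RUNX1, BAMBI, FSTL3, COL1A2 and TIMP3 passed every time, and the other 9 lost the call without at least 1 replicate. With the replicate number as a block all 15 passed, and so did 5 more: TGIF1, FST, ID3, SNAI2 and ANGPTL4. The genes beyond the largest rise and fall of each list are named after their values were seen.

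Among 10 tested genes of the latent complex and its activation, 0 rose and 3 fell. PLAT, the tissue plasminogen activator, fell by the most: it read 9.20, 9.37 and 10.06 in NCE and 8.43, 8.02 and 8.48 in CYGB+, a difference of -1.23 ± 0.23 (SE, adjusted p = 0.0185). ITGB8, the integrin subunit that with ITGAV binds latent TGF-beta, fell from 8.54, 8.55 and 8.48 to 7.24, 7.54 and 7.74, a difference of -1.02 ± 0.14 (SE, adjusted p = 0.00689). ITGB6, the epithelial partner of ITGAV in latent TGF-beta activation, had a difference of -0.47 ± 0.12 (SE, adjusted p = 0.0460), while ITGAV itself differed by 0.10 and did not pass. THBS1, thrombospondin 1, which is known to activate latent TGF-beta, differed by -0.65 and did not pass. With slide as a term ITGB8 kept its call (-1.09), and PLAT and ITGB6 did not (adjusted p = 0.0906 and 0.247).

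None of 6 tested receptors and co-receptors was called by limma, and 1 had an unadjusted p under 0.05, with differences from -0.21 (BMPR1A, a BMP receptor) to 0.30 (TGFBRAP1, a receptor-associated protein). Among 11 tested SMADs and nuclear partners 1 was called: RUNX1, a transcription factor that acts with SMADs, read 9.91, 9.96 and 10.16 in NCE and 8.87, 8.94 and 9.11 in CYGB+. It fell by 1.04 on the log2 scale (SE 0.12, adjusted p = 0.00462) and kept the call with slide as a term (-1.02). Of its 5 probes 4 were tested and 2 passed, and the other tested probes read -0.19 and -0.18.

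The negative regulators were split. FSTL3, a secreted antagonist of activins, rose from 8.06, 7.59 and 7.41 to 9.16, 9.62 and 8.90, by 1.54 ± 0.22 (SE, adjusted p = 0.00811). BAMBI, a pseudoreceptor that blocks TGF-beta receptors, rose from 6.60, 6.61 and 6.71 to 8.24, 7.61 and 8.04, by 1.33 ± 0.16 (SE, adjusted p = 0.00533). FKBP1A, which binds and silences the type I receptor, fell by 0.57 on the log2 scale (SE 0.14, adjusted p = 0.0379), with 4 of its 5 probes called. Without CYGB+ replicate 1 repeat 1 it was -0.33 (adjusted p = 0.151), and the call was lost under 16 of 21 alternatives. PPM1A, a SMAD phosphatase, differed by -0.53 ± 0.12 (SE, adjusted p = 0.0318). With slide as a term BAMBI kept its call (1.20), and FSTL3, FKBP1A and PPM1A did not (adjusted p = 0.0751, 0.608 and 0.369). Of the 12 tested, the other 8 did not pass and ranged from -0.67 (FST, follistatin, adjusted p = 0.0184 with the replicate block) to 0.43 (PMEPA1, a SMAD-binding membrane protein).

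Of 26 tested target genes, 3 rose and 2 fell. ID2, an inhibitor of differentiation, rose by 0.84 ± 0.21 (SE, adjusted p = 0.0400), CCN2, the connective tissue growth factor, by 0.80 ± 0.15 (SE, adjusted p = 0.0176) and JUNB, an AP-1 factor, by 0.65 ± 0.13 (SE, adjusted p = 0.0196). COL1A2, a type I collagen chain, read 7.93, 7.81 and 7.79 in NCE and 6.52, 6.65 and 6.40 in CYGB+, a difference of -1.32 ± 0.11 (SE, adjusted p = 0.00245). TIMP3, a matrix-bound inhibitor of metalloproteinases, read 10.58, 10.40 and 10.32 in NCE and 9.45, 9.30 and 9.29 in CYGB+, a difference of -1.09 ± 0.11 (SE, adjusted p = 0.00409). CCN2, COL1A2 and TIMP3 kept the call with slide as a term, and ID2 and JUNB did not (adjusted p = 0.419 and 0.104). Of the 21 that did not pass, SNAI2, a repressor of epithelial genes, differed by -0.62 and ANGPTL4, a secreted lipase inhibitor, by 1.11, and both passed with the replicate block (adjusted p = 0.0330 and 0.0181). COL1A2 is also a fibroblast marker, and FAP, a membrane protease on the same marker list, went the other way, higher by 0.57 (adjusted p = 0.0424, and 0.0955 with slide as a term). Of the 10 fibroblast markers 7 were well above background on no array, and the summed level of the list ran from 10.56 to 10.69 in NCE and from 10.53 to 11.06 in CYGB+. That sum includes the background signal of these 7, and FAP alone read 9.61 in NCE and 10.18 in CYGB+, so it is no measure of fibroblasts.

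Of the 7 other ligands tested, 2 rose. GDF15, a stress-induced ligand, rose by 1.08 ± 0.23 (SE, adjusted p = 0.0274) and GDF11, a ligand that acts through activin receptors, by 0.56 ± 0.095 (SE, adjusted p = 0.0132). With slide as a term GDF11 kept its call (0.56) and GDF15 did not (adjusted p = 0.138).

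**Figure D4:**
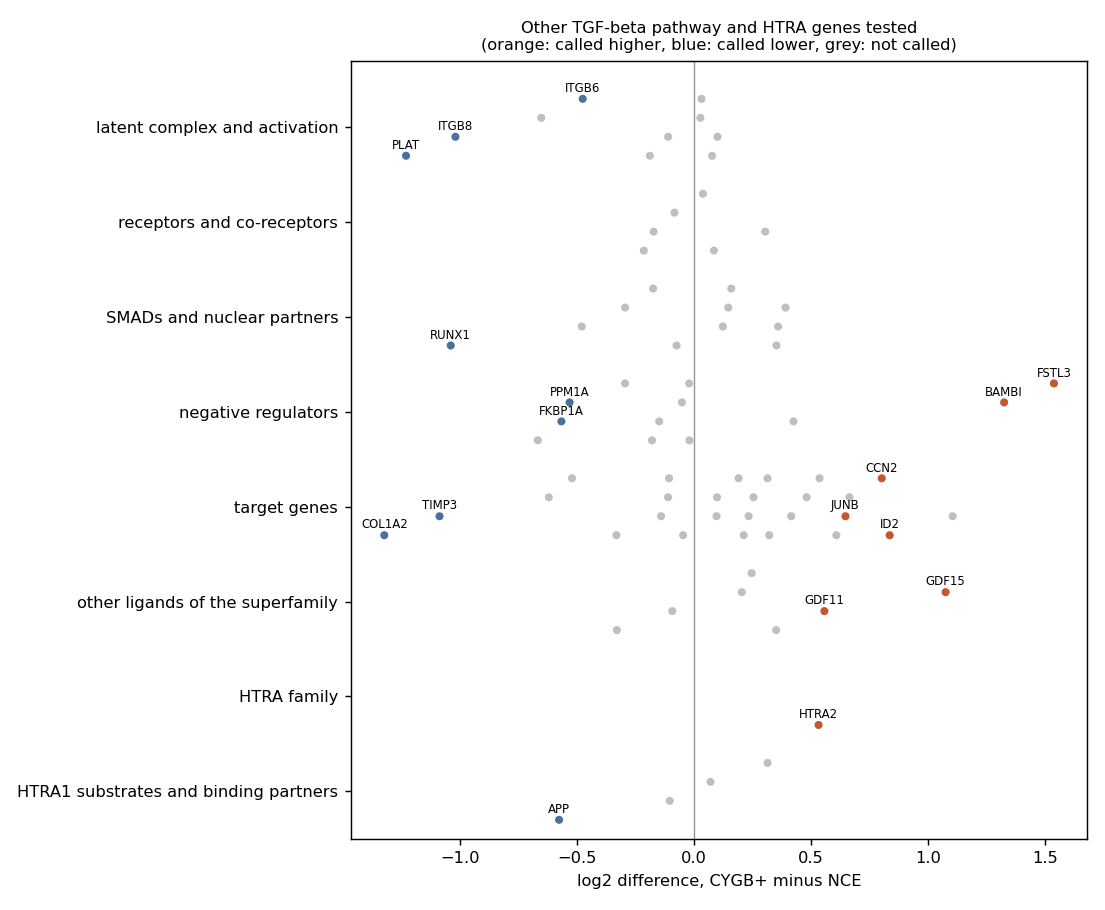
Log2 difference, CYGB+ minus NCE (horizontal axis), of each tested gene of the 6 pathway lists, the HTRA family and the HTRA1 substrates and partners (rows, points spread vertically for legibility). Called genes are named in orange (higher) or blue (lower) and grey points did not pass; FSTL3 lies highest at 1.54 and COL1A2 lowest at -1.32.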

How the data were processed

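RNA of 3 NCE and 3 CYGB+ biological replicates was measured on 15 arrays. The authors deposited scanner files with spot intensity in 2 channels, extracted with Agilent Feature Extraction 10.7.3.1 (array design annotation hg19), and a table of quantile-normalised values on a log scale (log2 assumed, as the base was not stated). Per the file headers, the processed intensity was dye-normalised against the red channel, whose RNA the labels do not describe, so raw green medians were used here.

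The green median and local background were corrected with normexp (offset 50), quantile normalised, averaged over spots of a probe and then over array repeats, and fitted with limma 3.58.1 in R 4.3.3, with Benjamini-Hochberg adjustment over 19604 probes. An offset of 50 narrows the differences of dim probes. A gene with several probes was represented by the brightest. Flagged outlier spots and control spots were left out. Between 47.6% and 56.8% of probes were well above background on an array, and the number of arrays limits precision. The fit was tested on simulated data with known changes.

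The genes and lists were chosen with earlier results of these data known. The text names all 10 genes with every probe, the largest called rise and fall of each pathway list, the HTRA family, the 5 genes nearest to HTRA1, and CYGB. Deviations of samples with the same replicate number correlated at r = 0.219, 0.234 and 0.312, and those with unlike numbers at -0.513 to 0.304, so the ranges overlap. The main fit did not pair the replicates. The replicate number entered only as a block in the alternative of that name. Alternatives covered the background, scaling, filter, slide, replicates, pairing, the methods' t-test and the deposited table, with 3 more added after seeing the data. Of the deposited table's 15040 rows, 15031 matched non-control probes. It was centred on the CYGB+ arrays, and its group differences correlated with those of the scanner files across probes (r = 0.958). Their slope on the differences of the log2 processed signal was 0.691, near that of natural logarithms. Values from this table are therefore given on its own log scale and are not compared in size with log2 differences.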

Additional observations from a re-analysis of the deposited data

Results flagged for a closer look

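TGFBR1 in NCE replicate 3 array repeat 2 read 7.54 log2 units, where the nearest of the other 8 NCE arrays read 7.04, so that this array stood apart from its group. It is 1 of the 2 arrays with the largest deviation over all probes, it is 1 of 22 sets of arrays examined in this way, and chance gives about 1 such case in 20. The cause was not tested.

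HTRA1 was also well above background in the red channel, which entered no comparison, on 15 of 15 arrays. The values are given under the other observations.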

How the results depend on the processing

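The main analysis called 2359 probes, 3 of the 10 genes and 15 other pathway genes, and 21 alternatives were run. With the 15 arrays and a random block these counts were 4570, 6 and 28, with slide as a term 731, 2 and 8, and within slide 2 they were 6, 0 and 0. Without CYGB+ replicate 1 array repeat 1 they were 3994, 5 and 24, and without that and NCE replicate 3 array repeat 2 they were 4181, 5 and 24, both settings chosen after seeing the data. The methods' t-test gave 773, 3 and 6 after Benjamini-Hochberg adjustment, and the deposited table gave 1444, 3 and 9, its 3 being HTRA1, SMAD7 and TGFB1, with TGFB2 not analysed in it. Leaving out each replicate in turn gave 509 to 2328 probes, 2 to 4 of the 10 genes and 7 to 15 pathway genes, the fewest probes without NCE replicate 2 (509) and NCE replicate 3 (538). Without NCE replicate 1 there were 1172 and without CYGB+ replicate 3 there were 1302. With the replicate block the counts were 3098, 4 and 20, and of the 10 genes the block changed the call of SMAD7 alone (adjusted p = 0.0417). Over the alternatives on log2 values, HTRA1 ranged from 2.05 to 2.71 and TGFB2 from -2.25 to -1.13, both losing the call within slide 2 alone. In the deposited table, on its own log scale, HTRA1 was 1.91. The sign of SMAD3 turned to 0.02 on the processed signal with 75th percentile scaling and to 0.03 without CYGB+ replicate 2 (-0.21 to 0.03 over the replicates left out). The sign of TGFBI turned to -0.07 with slide as a term, -0.09 within slide 2 and -0.05 without CYGB+ replicate 2 (-0.05 to 0.34 over the replicates left out). The cause of these changes was not tested, beyond the fewer arrays of the settings that leave some out. Dim probes near background, LTBP1, HTRA3 and HTRA4 among them, have no usable level.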

Other observations

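The red channel belongs to no group in the labels, and its values are given per array without a test. The log2 red signal of HTRA1 was 8.61, 8.66, 8.85, 8.89, 8.93 and 9.58 on 6 arrays, which were NCE replicate 2 repeat 2, NCE replicate 3 repeat 2, NCE replicate 2 repeat 3, NCE replicate 3 repeat 3, NCE replicate 1 repeat 2 and NCE replicate 1 repeat 3. On the other 9 arrays it was 10.62, 10.76, 11.02, 11.27, 11.30, 11.38, 11.53, 11.62 and 12.50. These were the 6 CYGB+ arrays and the first repeat of each NCE replicate (10.76, 11.02 and 11.38). TGFB2 in red lay between 9.16 and 10.30 on the first 6 arrays and between 7.48 and 8.59 on the other 9. On the same arrays the green signals of both genes followed the labelled groups without overlap, the first NCE repeats included.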
